A study of Mus musculus with 24 samples.

Results

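The 10 genes described here encode parts of the cell cycle and DNA replication machinery: the proliferation marker Mki67, the mitotic and S-phase genes Top2a, Cdk1, Ccna2, Ccnb1 and Birc5, the replicative helicase subunits Mcm3, Mcm5 and Mcm6, and the replication checkpoint adaptor Clspn. They were taken by name from count tables of 54532 genes, and all 10 were found. They were chosen by their mutant against wild type difference in cerebrum at postnatal day 75 (P75), where Clspn was lower and mitotic genes were higher, so values of that contrast are given for them as a description without a test. That choice did not rest on genotype differences at P42, the difference between tissues at P42, or the other cell cycle genes, which were tested. Both the 10 genes and the lists of other genes were chosen with earlier results of these data known. The tests are therefore not independent of those results.

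The libraries came from a mouse model of POLR3-related disease, in which Polr3a, the gene of the largest subunit of RNA polymerase III, is mutated after tamoxifen. Polyadenylated RNA was sequenced from C57BL/6J mice labelled Polr3a mutant or wild type, and all mice of both genotypes received tamoxifen at P28. There were 6 groups of 4 libraries: mutant and wild type cerebrum at P42, mutant and wild type cerebellum at P42, and mutant and wild type cerebrum at P75, that is 14 days (P42) or 47 days (P75) after tamoxifen. Each P42 cerebrum group held 2 males and 2 females, the P42 cerebellum groups held 3 males and 1 female (wild type) or 2 males and 2 females (mutant), and all P75 libraries were from males. The labels name no Cre driver and do not say whether wild types carried Cre, and they do not state that each library came from a separate animal, so p-values measure the spread between libraries.

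Library totals ranged from 13832721 to 23175864 counts. Polr3a itself did not differ by a tested amount in any comparison (log2 fold change between -0.14 and 0.10, edgeR quasi-likelihood adjusted p 0.542 or higher), so its level does not check the genotype labels. Reads at Esr1, the oestrogen receptor gene whose ligand-binding part serves in tamoxifen-inducible Cre fusions, were at 38.5 CPM (counts scaled to a TMM-adjusted library total of 1000000) or more in every mutant library and at 9.66 CPM or less in every wild type library. Purkinje and granule neuron markers summed to 1390 to 4930 CPM in cerebellum and 167 to 335 CPM in cerebrum. At P42 the cerebrum libraries differed in regional markers: thalamus and hypothalamus markers summed to 72.8 to 229 CPM in wild types and 448 to 822 CPM in mutants, and striatal projection neuron markers ran from 216 CPM in wild type replicate 3 to 1605 CPM in wild type replicate 2.

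Cells duplicate their DNA once per division. MCM proteins are loaded on replication origins in G1 and unwind DNA in S phase, Claspin (Clspn) travels with the fork and passes stalled-fork signals from ATR to CHK1, and cyclin A2, cyclin B1 and CDK1 drive the passage into mitosis. In the adult brain most neurons have left the cycle for good, and dividing cells are mainly oligodendrocyte precursors, neurogenic progenitors and, in disease, microglia and other glia. Many S-phase genes carry E2F sites near their start, and many mitotic genes carry a cell cycle homology region (CHR) bound by the DREAM and MuvB complexes, often beside CCAAT boxes. In bulk tissue, a change in the number of dividing cells cannot be told apart from a change in RNA per cell.

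Promoter sequences were taken from RefSeq (GRCm38.p6), 300 bases each, 250 before and 50 after the start, and 9 of the 10 genes matched; Ccna2 was not among them. The 3 motifs searched on both strands were CHR, spelled TTTGAA or TTCGAA, the CCAAT box, spelled CCAAT, and E2F, spelled TTTCCCGC or TTTCGCGC or TTTGCCGC or TTTGGCGC, with capitals marking the matches below. The 5 promoters are shown because Mki67, Top2a and Mcm6 were higher and Clspn lower in P75 mutants without overlap of the groups, while Mcm5, a helicase partner of Mcm6, hardly differed. The windows are chr7:135716330-135716629 (Mki67, minus strand), chr11:99024140-99024439 (Top2a, minus), chr8:75109259-75109558 (Mcm5, plus), chr1:128359656-128359955 (Mcm6, minus) and chr4:126556730-126557029 (Clspn, plus).
Mki67: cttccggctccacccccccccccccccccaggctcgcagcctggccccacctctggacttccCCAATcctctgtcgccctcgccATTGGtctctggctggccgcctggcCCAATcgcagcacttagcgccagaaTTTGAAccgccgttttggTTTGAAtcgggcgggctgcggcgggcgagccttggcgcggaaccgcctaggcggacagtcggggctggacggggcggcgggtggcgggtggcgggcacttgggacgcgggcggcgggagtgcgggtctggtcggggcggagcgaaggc
Top2a: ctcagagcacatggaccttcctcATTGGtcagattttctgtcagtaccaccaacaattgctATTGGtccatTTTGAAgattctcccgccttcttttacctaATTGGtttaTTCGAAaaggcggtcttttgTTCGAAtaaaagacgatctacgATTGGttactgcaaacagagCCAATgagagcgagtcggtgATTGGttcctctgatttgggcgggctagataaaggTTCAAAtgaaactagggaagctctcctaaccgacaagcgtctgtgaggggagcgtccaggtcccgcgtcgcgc
Mcm5: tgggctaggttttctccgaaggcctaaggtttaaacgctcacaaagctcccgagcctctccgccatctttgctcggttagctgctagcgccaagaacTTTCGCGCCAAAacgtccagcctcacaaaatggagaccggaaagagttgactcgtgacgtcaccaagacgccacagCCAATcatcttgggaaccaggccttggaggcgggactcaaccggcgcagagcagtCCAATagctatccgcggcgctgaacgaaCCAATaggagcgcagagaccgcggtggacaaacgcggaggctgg
Mcm6: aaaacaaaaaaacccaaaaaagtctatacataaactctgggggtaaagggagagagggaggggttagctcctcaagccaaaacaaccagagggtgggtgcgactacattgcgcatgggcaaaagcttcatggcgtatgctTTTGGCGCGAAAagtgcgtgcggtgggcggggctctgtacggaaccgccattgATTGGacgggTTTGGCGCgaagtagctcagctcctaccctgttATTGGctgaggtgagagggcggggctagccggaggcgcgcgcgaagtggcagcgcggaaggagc
Clspn: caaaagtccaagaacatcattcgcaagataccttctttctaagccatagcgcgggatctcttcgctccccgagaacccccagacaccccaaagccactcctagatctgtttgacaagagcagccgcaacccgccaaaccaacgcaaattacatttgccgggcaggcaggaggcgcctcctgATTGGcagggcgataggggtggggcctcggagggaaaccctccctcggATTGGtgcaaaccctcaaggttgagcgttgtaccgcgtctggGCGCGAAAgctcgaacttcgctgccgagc

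CHR matches lay in the promoters of Mki67 (2), Top2a (4) and Cdk1 (2), that is 3 of 9, against 19.2% of all 32851 promoters. E2F matches lay in 5 of 9 (Cdk1, Mcm3, Mcm5, Mcm6 and Clspn) against 2.26% of all promoters. CCAAT boxes lay in 8 of 9, all but Birc5, against 37.4%. In Mcm5 and in Mcm6 a pair of E2F matches on opposite strands overlapped. Clspn, lower at P75, thus held the same classes of match (E2F and CCAAT, no CHR) as Mcm6, higher at P75, and Mcm5. Among other cell cycle genes, CHR matches were found for 34 of 43 mitosis genes (79.1%), with E2F matches for 3 of 43 (6.98%). Origin licensing genes held CHR and E2F matches equally often, each in 6 of 15 genes (40%). In these lists a gene counted when any of its promoters held a match, so the shares are not on the per-promoter scale above. These matches are letters in a window and were not tested for binding.

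**Figure D1:**
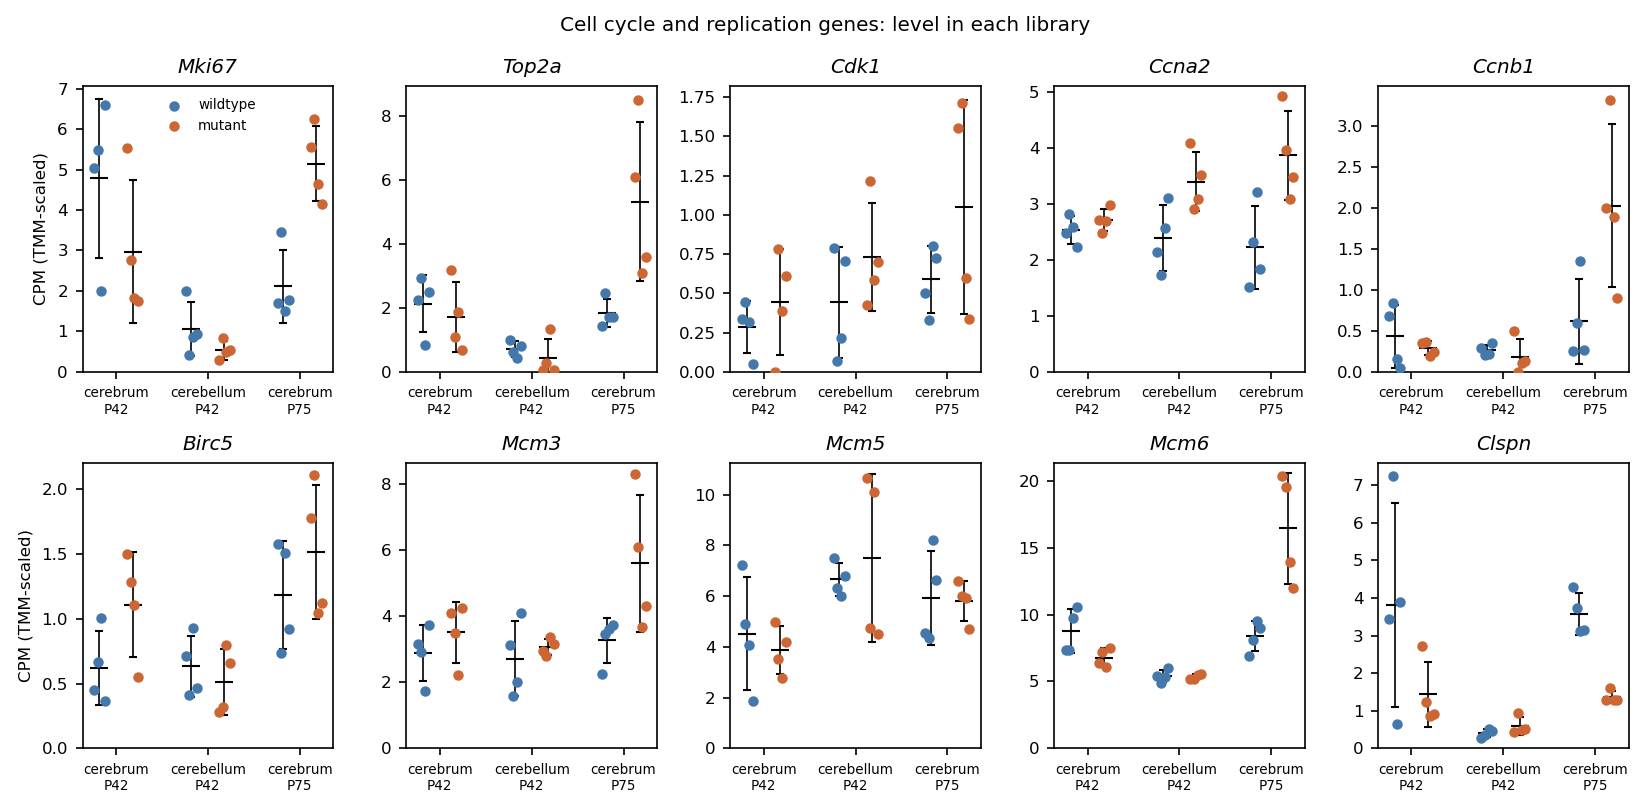
Level of each of the 10 genes in every library, as CPM on a linear axis from 0 (each panel has its own scale), with wild type in blue and mutant in orange; points are libraries, bars the mean and SD of 4. In cerebrum at P75 all 4 mutants lie above all 4 wild types for Mki67, Top2a and Mcm6 and below them for Clspn, and at P42 the groups overlap for all 10 genes.

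In P75 cerebrum, the mean level of each of the 6 proliferation and mitotic genes was higher in mutants, and that of Clspn was lower. Log2 fold changes are mutant over wild type with their standard error (SE), and no p is given for these 10 genes since this contrast selected them. Over all genes tested, 14.3% were called at an edgeR quasi-likelihood adjusted p under 0.05 (7.66% higher, 6.62% lower), and in 20.1% the groups did not overlap. The groups did not overlap for 4 of the 10 genes, which is a description only.

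Mki67 (ENSMUSG00000031004, chr7:135689784-135716361), which encodes a coat protein of mitotic chromosomes, was at 1.70, 3.46, 1.51 and 1.77 CPM in wild type replicates 1 to 4 and at 5.55, 6.24, 4.63 and 4.16 CPM in mutants. Every mutant lay above every wild type, with a log2 fold change of 1.30 ± 0.27 (2.46-fold). Top2a (ENSMUSG00000020914, chr11:98992943-99024189), the topoisomerase that untangles replicated DNA, was at 1.45, 2.46, 1.71 and 1.71 CPM in wild types and at 6.11, 8.51, 3.09 and 3.60 CPM in mutants. The mutants were again all higher (1.54 ± 0.32), and mutant replicates 1 and 2 were the highest, as they were for the sum of the 6 proliferation and mitotic genes.

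Cyclin B1 (Ccnb1, ENSMUSG00000041431, chr13:100778650-100786570), the partner of CDK1 in mitosis, was at 0.252, 0.599, 1.36 and 0.263 CPM in wild types and at 2.0, 3.32, 1.89 and 0.899 CPM in mutants. Wild type replicate 3 exceeded mutant replicate 4, so the groups overlapped; the log2 fold change was 1.65 ± 0.51, and 2.44 without wild type replicate 3. Cyclin A2 (Ccna2, ENSMUSG00000027715, chr3:36564865-36572150), which acts in S phase and G2, was at 1.51, 2.33, 3.22 and 1.84 CPM in wild types and at 4.94, 3.98, 3.09 and 3.49 CPM in mutants. The log2 fold change was 0.79 ± 0.26, with mutant replicate 3 just below wild type replicate 3. Ccna2 overlaps Exosc9 on the opposite strand, which held 7971 counts over all libraries against 1244 for Ccna2, and whether counting used strand is not given in the sources used here. Exosc9, an exosome subunit gene, showed a P75 log2 fold change of -0.10 ± 0.11 (edgeR quasi-likelihood adjusted p = 0.59).

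Cdk1 (ENSMUSG00000019942, chr10:69335146-69352938), the mitotic kinase, was at 0.504, 0.333, 0.804 and 0.723 CPM in wild types and at 1.56, 1.71, 0.598 and 0.337 CPM in mutants. Only mutant replicates 1 and 2 exceeded the wild types, and the log2 fold change was 0.81 ± 0.50. Birc5 (ENSMUSG00000017716, chr11:117849251-117855743), which encodes survivin of the chromosomal passenger complex, was at 0.733 to 1.57 CPM in wild types and 1.05 to 2.11 CPM in mutants, overlapping groups with a log2 fold change of 0.34 ± 0.35. These are sparse genes: in the P75 libraries Cdk1 had 5 to 34 counts, Ccnb1 4 to 66 and Birc5 11 to 42.

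The 3 helicase subunits did not move together. Mcm6 (ENSMUSG00000026355, chr1:128331590-128359664) was at 6.93, 8.12, 9.55 and 9.0 CPM in wild types and at 20.4, 19.5, 13.9 and 12 CPM in mutants. All mutants lay above all wild types, by 0.97 ± 0.18 on the log2 scale (1.96-fold). Mcm3 (ENSMUSG00000041859, chr1:20802968-20820312) was at 2.27, 3.46, 3.62 and 3.75 CPM in wild types and at 8.33, 6.09, 3.69 and 4.33 CPM in mutants. Its log2 fold change was 0.77 ± 0.26, and mutant replicate 3 lay inside the wild type range. Mcm5 (ENSMUSG00000005410, chr8:75109569-75128439) was at 4.53, 4.33, 8.19 and 6.64 CPM in wild types and at 6.61, 5.99, 5.93 and 4.72 CPM in mutants. The groups of Mcm5 overlapped entirely (-0.03 ± 0.21), and its sign turned to 0.07 when libraries were scaled by their size alone. MCM proteins act as one ring of 6 subunits, of which Mcm2, Mcm4 and Mcm7 were in the licensing list described below.

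Clspn (ENSMUSG00000042489, chr4:126556935-126593903) went the other way. It was at 4.28, 3.73, 3.12 and 3.15 CPM in wild types and at 1.28, 1.61, 1.30 and 1.29 CPM in mutants, from 48 to 68 counts per wild type library and 23 to 32 per mutant library. Every mutant lay below every wild type, and the mutants were tightly grouped (mean 1.37 ± 0.162 CPM, SD, n = 4, against 3.57 ± 0.552 CPM). The log2 fold change was -1.37 ± 0.23, between -1.46 and -1.27 over 14 alternative settings. With totals in place of TMM factors the median log2 fold change over all genes at P75 was 0.108 against 0.003, and the calls over all genes went from 1342 higher and 1160 lower to 2313 higher and 547 lower; that shift raised every member's value by about the same amount.

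**Figure D2:**
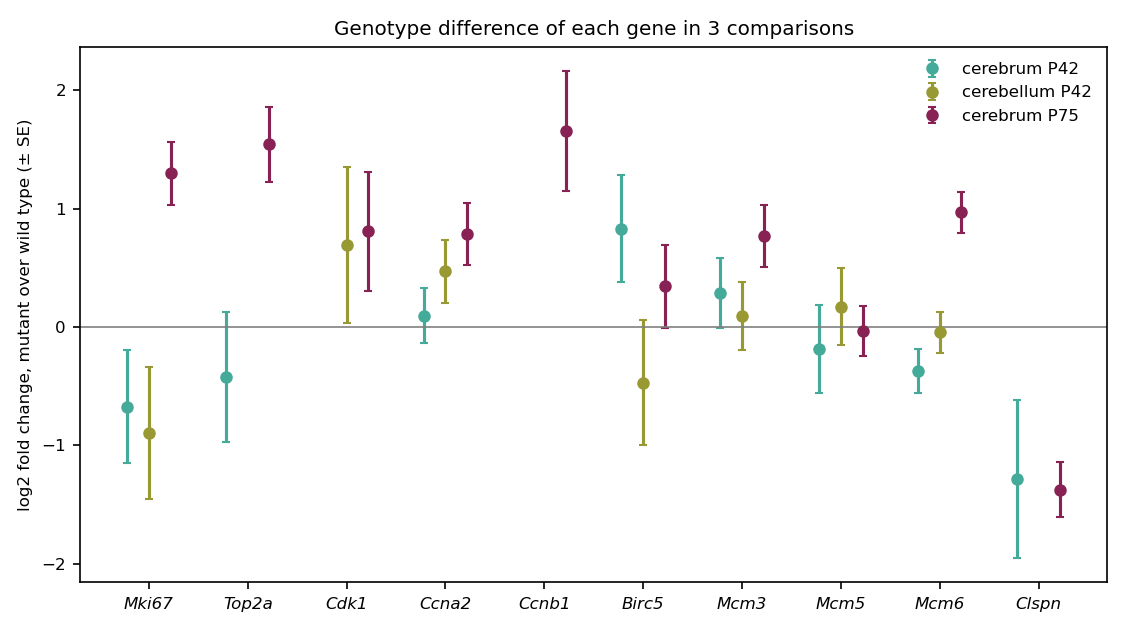
Log2 fold change (mutant over wild type, ± SE, edgeR) of each gene in cerebrum P42, cerebellum P42 and cerebrum P75; genes that did not pass the filter on low counts in a comparison have no point there. The P75 values reach from -1.37 for Clspn to 1.65 for Ccnb1; at P42 the 2 tissues span -1.29 (Clspn, cerebrum) to 0.83 (Birc5, cerebrum).

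At P42, 14 days after tamoxifen, none of the 10 genes passed the test in cerebrum. Of the 10, 8 passed the filter on low counts (Cdk1 and Ccnb1 did not) and 0 were called by edgeR's quasi-likelihood test, where 0.0165% of all genes were called; 0 had an unadjusted p under 0.05, and DESeq2 called 0. The mutant and wild type values overlapped for all 10, where 6.41% of all genes did not overlap. With no filter on low counts, Clspn alone of the 10 was called (log2 fold change -1.28, edgeR quasi-likelihood adjusted p = 0.0206). That setting called 1312 of 34243 genes over all, against 3 of 18205 with the filter. Over the 16 alternatives the adjusted p of Clspn reached from 0.0206 to 0.998.

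In P42 cerebrum Clspn was at 3.45, 7.26, 0.634 and 3.89 CPM in wild type replicates 1 to 4 and at 2.72, 1.24, 0.865 and 0.912 CPM in mutants. Wild type replicate 3 was below all mutants. The log2 fold change was -1.29 ± 0.67 (edgeR quasi-likelihood adjusted p = 0.435), -1.93 without mutant replicate 1, -1.82 without wild type replicate 3, -0.89 without wild type replicate 2 and -0.20 in males only. Mki67 was at 5.03, 5.49, 2.01 and 6.60 CPM in wild types and at 5.55, 2.76, 1.83 and 1.76 CPM in mutants (-0.67 ± 0.48, adjusted p = 0.534). Its P75 difference lay in the opposite direction; this P42 value spans both sides of 0 within 2 SE, and in males only it was 0.06. Top2a showed -0.42 ± 0.55 (adjusted p = 0.736), Mcm6 -0.37 ± 0.19 (adjusted p = 0.43) and Birc5 0.83 ± 0.45 (adjusted p = 0.447).

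Marker levels also differed between these P42 cerebrum groups. By edgeR's quasi-likelihood test 0 genes of the marker lists were called. DESeq2 called 4 of 7 thalamus and hypothalamus markers, 2 of 12 myeloid, 2 of 5 blood and 2 of 6 choroid plexus markers. Over all genes DESeq2 called 206 of the 34243 fitted. Unadjusted edgeR p was under 0.05 for 7, 5, 2 and 4 markers of these lists, where 3 blood markers passed the filter. Over all genes it was under 0.05 for 2299 of 18205. Myeloid sums were 267 to 318 CPM in wild types and 219 to 236 CPM in mutants, without overlap. Cortical and hippocampal excitatory markers summed to 3282 to 6255 CPM in wild types, 4982 and 3703 CPM in mutant replicates 1 and 2, and 972 and 1283 CPM in mutant replicates 3 and 4. The part of this composition in the values of the 10 genes was not tested.

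Mcm6 at P42 was at 7.35, 7.35, 9.72 and 10.6 CPM in wild type cerebrum and at 6.35, 7.21, 6.05 and 7.54 CPM in mutants, with 2 wild types inside the mutant range. Ccna2 (0.10 ± 0.23), Mcm3 (0.29 ± 0.30) and Mcm5 (-0.19 ± 0.37) had adjusted p values of 0.866, 0.669 and 0.834 by edgeR's quasi-likelihood test. Cdk1 had 0 to 17 counts and Ccnb1 1 to 19 per cerebrum library, and the count of 0 for Cdk1 in mutant replicate 1 allows a level of up to 0.169 CPM (3 counts of the library total, counting error only).

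In cerebellum at P42, 7 of the 10 passed the filter (Top2a, Ccnb1 and Clspn did not) and 0 were called, against 0.0114% of all genes; 0 had an unadjusted p under 0.05 and DESeq2 called 0. All 10 overlapped between genotypes, where 3.43% of all genes did not overlap. Clspn was barely counted there, with 4 to 8 counts per wild type and 6 to 18 per mutant library. Mki67 was at 2.0, 0.415, 0.859 and 0.938 CPM in wild types and at 0.282, 0.846, 0.481 and 0.527 CPM in mutants (-0.90 ± 0.56, adjusted p = 0.967). Ccna2 was at 1.73 to 3.11 CPM in wild types and 2.91 to 4.09 CPM in mutants (0.47 ± 0.26, adjusted p = 0.967). The remaining estimates were 0.69 ± 0.66 for Cdk1, -0.47 ± 0.53 for Birc5, 0.10 ± 0.29 for Mcm3, 0.17 ± 0.33 for Mcm5 and -0.05 ± 0.18 for Mcm6, with adjusted p of 0.98 or higher. Cdk1 was at 0.05 without mutant replicate 2, and Birc5 at -1.17 without wild type replicate 4. A count of 0 for Ccnb1 in mutant replicate 2 allows up to 0.157 CPM.

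The genotype effect was compared between cerebrum and cerebellum at P42 by an interaction term over 16 libraries. Of 9 genes tested 0 were called, as were 0% of all 19614 genes. Clspn had the largest difference among them, a log2 value of -1.90 ± 0.88 (cerebrum effect minus cerebellum effect, unadjusted p = 0.0471, adjusted p = 0.732). Top2a, at 0.58 ± 1.09, moved to 2.03 without cerebellum mutant replicate 3. For the 8 genes other than Clspn the unadjusted p was 0.152 or higher, and DESeq2 called 0 of the 9.

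Wild type cerebrum and cerebellum differed for 4 of the 8 genes tested at P42 (Cdk1 and Ccnb1 did not pass the filter), all higher in cerebrum, against 30.5% of all genes called (16.4% higher in cerebrum, 14.1% lower). Clspn was at 0.634 to 7.26 CPM in cerebrum and 0.286 to 0.501 CPM in cerebellum, a log2 difference of 2.91 ± 0.60 (7.54-fold, edgeR quasi-likelihood adjusted p = 0.00405). Every cerebrum library lay above every cerebellum library, with levels scaled among the libraries of each tissue. Clspn passed the filter on low counts through cerebrum, at 12 to 164 counts per library against 4 to 8 in cerebellum. Being tested thus depended on its level in cerebrum. The same held for Mki67 (6 to 28 counts per library in cerebellum) and Top2a (6 to 14), but not for Mcm6 (71 to 102). The call of Clspn held in the 12 alternatives where it was tested, and the stricter filter left it out. Its log2 difference ran from 2.27 without cerebrum replicate 1 (adjusted p = 0.0307) to 3.42 without cerebrum replicate 3 (adjusted p = 0.000293). Mki67 was at 2.01 to 6.60 CPM in cerebrum and 0.415 to 2.0 CPM in cerebellum, a log2 difference of 2.11 ± 0.49 (adjusted p = 0.00854). Without cerebellum replicate 4 its adjusted p was 0.0509.

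Top2a was 2.74-fold higher in cerebrum (1.45 ± 0.44, adjusted p = 0.0288), but the call was lost in 5 of 13 alternatives, each leaving out 1 library: cerebrum replicate 1 or 2, or cerebellum replicate 2, 3 or 4 (adjusted p 0.0605 to 0.154). Mcm6 was at 7.35 to 10.6 CPM in cerebrum and 4.92 to 5.98 CPM in cerebellum (0.75 ± 0.20, adjusted p = 0.016), with an adjusted p of 0.0805 without cerebrum replicate 3. Ccna2 (0.12 ± 0.27), Birc5 (0.19 ± 0.48), Mcm3 (0.04 ± 0.31) and Mcm5 (-0.42 ± 0.33) did not pass, with adjusted p of 0.365 or higher, and Ccna2 and Mcm3 changed sign under scaling by library size alone. That scaling moved the split over all genes from 2943 higher and 2529 lower to 2424 higher and 3500 lower in cerebrum, and the median from -0.031 to -0.153; the 4 calls remained.

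Marker sums of cell types that divide or can divide also differed between the wild type tissues, in both directions. Adult neuroblast and progenitor markers summed to 103 to 162 CPM in cerebrum and 42.1 to 73.0 CPM in cerebellum, myeloid markers to 267 to 318 and 128 to 159 CPM, and oligodendrocyte precursor markers to 232 to 273 and 156 to 202 CPM. Granule cell precursor markers summed lower in cerebrum, at 15.8 to 24.1 CPM against 28.9 to 36.6 CPM. Of these 3 markers Atoh1 was at 0 in every cerebrum library, and 1 was at 0 in cerebellum replicates 1 and 4. The sum does not establish that such precursors were present. The part of these cell types in the tissue difference was not tested. Per kilobase of gene model, Mcm6 was the most abundant of the 10 in wild type cerebrum at P42 (1.88 CPM per kilobase), then Mcm5 (1.13), Mcm3 (0.771), Ccna2 (0.621), Clspn (0.530), Mki67 (0.475), Top2a (0.236), Birc5 (0.183), Ccnb1 (0.103) and Cdk1 (0.0583). In wild type cerebellum Mcm5 came first (1.67 CPM per kilobase) and Clspn last (0.0557).

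The other cell cycle genes were drawn from 5 lists of 158 genes, none of them among the 10. These lists were chosen with earlier results of these data known. In P75 cerebrum 148 passed the filter, and 12 rose (8.11%) and 3 fell (2.03%) by edgeR's quasi-likelihood test, near the background for genes that rose and below it for genes that fell (7.66% and 6.62%). Their median log2 fold change was 0.16 against 0.003 over all genes. The count that rose was 7 without mutant replicate 1, 7 without mutant replicate 2 and 21 without mutant replicate 4, and the count that fell was 1 without mutant replicate 1. Calls over all genes moved as well: 1342 rose in all libraries, 831 without mutant replicate 1, 986 without mutant replicate 2 and 1547 without mutant replicate 4, while 1160 fell in all libraries and 525 without mutant replicate 1.

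Of the mitosis list, 7 of 44 tested genes rose (15.9%) and 0 fell, with a median of 0.49. Ube2c, the E2 enzyme that works with the anaphase-promoting complex, was at 0.266 to 0.657 CPM in wild types and 3.26 to 3.61 CPM in mutants, a log2 fold change of 2.91 ± 0.30 (adjusted p = 2.25e-05). All mutants were above all wild types. Ckap2, a spindle-associated protein gene (1.51 ± 0.34, adjusted p = 0.00841), and cyclin B2 (Ccnb2, 1.41 ± 0.33, adjusted p = 0.011) were also higher without overlap. The mitotic kinase Plk1 rose by 1.05 ± 0.31 (adjusted p = 0.0365), a call lost in 5 of 14 alternatives. Hmmr, Tacc3 and Kif20a, named after their values were seen since they complete the count, showed 1.79, 0.64 and 0.74, and each lost its call when any of 5 or 6 single libraries was left out.

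Of the origin licensing and helicase list, 2 of 20 rose and 0 fell (median 0.08). Mcm7 was at 14 to 16.5 CPM in wild types and 18.6 to 26.6 CPM in mutants (0.57 ± 0.12, adjusted p = 0.00721), without overlap. Mcm2 rose by 0.96 ± 0.25 (adjusted p = 0.0194), with overlapping groups, and its call was lost without wild type replicate 4, mutant replicate 1 or mutant replicate 2. The loader Cdc6 (0.84 ± 0.35, adjusted p = 0.124) and the initiation factor Mcm10 (0.91 ± 0.39, adjusted p = 0.134) did not pass. Of the 33 fork and nucleotide supply genes, 0 were called, 7 had an unadjusted p under 0.05 and DESeq2 called 0; Chaf1b, a histone chaperone subunit gene, had the smallest p (1.21 ± 0.40, adjusted p = 0.0595).

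In the checkpoint and fork repair list, to whose pathway Clspn belongs, 1 of 17 tested genes rose and 1 fell (median 0.08). Brca2, a DNA repair gene, was at 8.25 to 11.4 CPM in wild types and 13.8 to 16 CPM in mutants (0.59 ± 0.13, adjusted p = 0.00706). Wee1, the kinase that restrains CDK1, was at 25.4 to 33.5 CPM in wild types and 18.7 to 23.1 CPM in mutants (-0.44 ± 0.11, adjusted p = 0.0175), and the call was lost without mutant replicate 1. Chek1, the kinase that Claspin helps activate, was higher in each mutant than in each wild type (2.32 to 3.19 against 0.999 to 1.76 CPM) but did not pass (0.80 ± 0.26, adjusted p = 0.0553). The helicase gene Blm showed 0.30 ± 0.18 (adjusted p = 0.285).

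Among G1 cyclins, inhibitors and E2F or DREAM regulators, 2 of 34 rose and 2 fell (median 0.12). Cdkn1a, which encodes the CDK inhibitor p21, was at 30.7 to 43.3 CPM in wild types and 75.5 to 120.1 CPM in mutants (1.42 ± 0.15, adjusted p = 2.49e-05). Mybl2, the activating partner of the MuvB complex, rose by 1.31 ± 0.33 (adjusted p = 0.0177; lost without wild type replicate 4 or mutant replicate 2). E2f1, the transcription factor of S-phase entry, fell: it was at 11 to 13.5 CPM in wild types and 5.22 to 7.77 CPM in mutants (-0.90 ± 0.16, adjusted p = 0.0018). E2f6, a repressor of the same family, fell by 0.26 ± 0.07 on the log2 scale (adjusted p = 0.0229), a call lost in 6 of 14 alternatives.

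**Figure D3:**
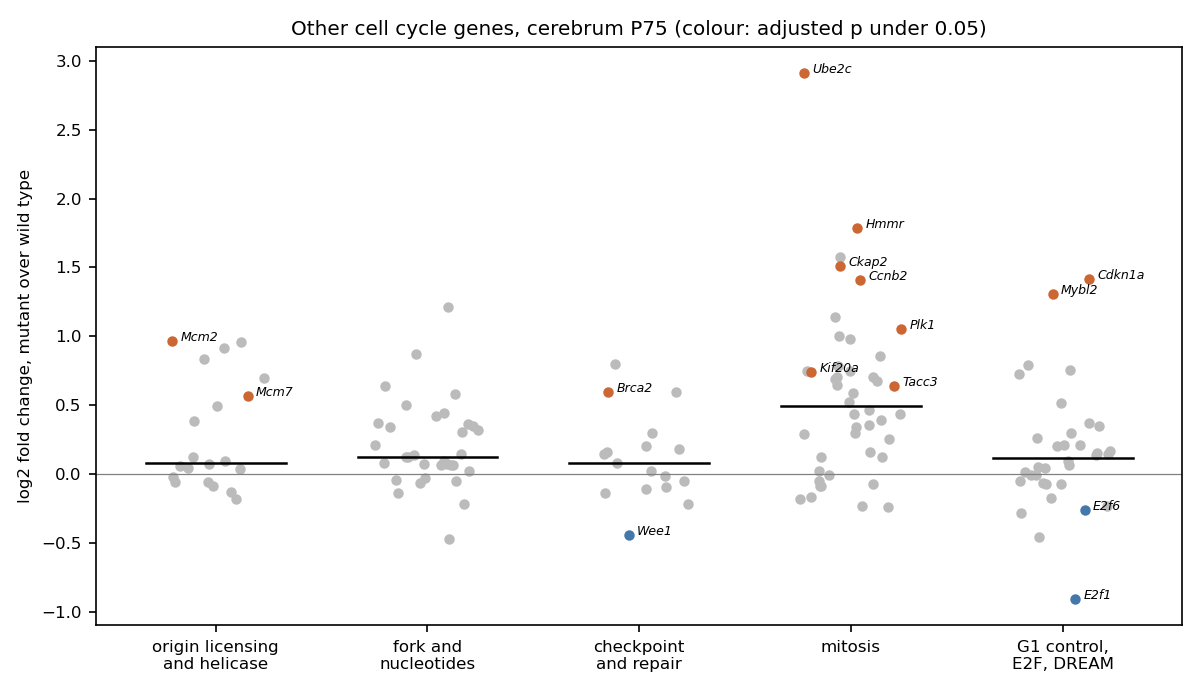
Log2 fold change (mutant over wild type) in P75 cerebrum of the other cell cycle genes by list; each point is a gene, black lines are list medians, orange and blue mark genes that rose or fell at an adjusted p under 0.05 and grey the rest, with called genes named. The mitosis list has the highest median (0.49) and 7 of the 12 genes that rose, and E2f1 (-0.90) is the lowest point.

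At P42 0 of the other cell cycle genes were called by edgeR's quasi-likelihood test in either tissue. In cerebrum 144 were tested, 13 had an unadjusted p under 0.05 and DESeq2 called 1; in cerebellum 141 were tested, 9 had an unadjusted p under 0.05 and DESeq2 called 0. Cdkn1a had the smallest p in both tissues, at 1.12 ± 0.29 in cerebrum (adjusted p = 0.326) and 1.30 ± 0.42 in cerebellum (adjusted p = 0.967). In cerebrum it was at 21.5 to 37.9 CPM in wild types and 33.4 to 104 CPM in mutants. Plk1 was at 0.752 to 1.64 CPM in wild type cerebrum and 2.35 to 3.35 CPM in mutants, without overlap, at 1.2 ± 0.33 (adjusted p = 0.34). The smallest p in the licensing and fork lists in cerebrum belonged to Orc4 and Lig1 (adjusted p = 0.377 and 0.362), and in the other lists in cerebellum to Mcm7, Pcna, Brca2 and Ckap2 (adjusted p = 0.967 each).

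Markers of other cell types moved with genotype in P75 cerebrum. Of the 12 myeloid markers, 10 rose and 0 fell (Csf1r 0.72 and Aif1 1.42 on the log2 scale), with sums of 325 to 332 CPM in wild types and 426 to 839 CPM in mutants. The highest sums were in mutant replicates 1 and 2 (832 and 839 CPM), where the 6 proliferation and mitotic genes also summed highest (21.9 and 25.9 CPM, against 14.3 and 13.6 CPM in replicates 3 and 4 and 6.99 to 10.1 CPM in wild types). All 6 reactive astrocyte markers rose (Gfap 2.47, Vim 1.32), with sums of 268 to 327 CPM in wild types and 2000, 2181, 907 and 728 CPM in mutant replicates 1 to 4, and 4 of 8 endothelial markers rose. Of the 5 B cell markers 2 were tested and 1 rose, Cd79a (4.2), with sums of 0.591 to 1.95 CPM in wild types and 9.77, 6.70, 4.73 and 5.12 CPM in mutant replicates 1 to 4. Mutant replicates 1 and 2 were thus highest for the astrocyte and B cell sums too.

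Markers of the cells that divide in the healthy brain were not called higher beside the mitotic genes. Of 7 oligodendrocyte precursor markers 2 fell, Pdgfra (-0.32) and Gpr17 (-0.34), and 0 rose (sums 208 to 230 against 173 to 195 CPM); of 8 neuroblast and progenitor markers 1 fell, Dcx (-0.49), and 0 rose (140 to 172 against 115 to 155 CPM). Neuronal markers fell beside Clspn: 4 of 8 striatal markers (Drd2 -0.88, while Drd1, at -0.15, did not pass; sums 884 to 972 against 496 to 836 CPM) and 6 of 8 cortical and hippocampal excitatory markers (Slc17a7 -0.35, Neurod6 -0.51; 4390 to 4760 against 2550 to 3720 CPM). Of 12 T cell markers 4 were tested, of which Lck rose (1.0) and Trbc2 (-1.16) and Cd4 (-1.04) fell (sums 13.7 to 15.6 against 9.11 to 12.2 CPM). Cd3d, Cd3g, Cd8a and Gzmb were at 0 in every wild type library, while each was counted in at least 1 mutant library. Per library, 6 to 7 of the 12 markers were at 0 in wild types and 1 to 4 in mutants. Of the remaining lists, 1 of 6 choroid plexus and 2 of 7 thalamus and hypothalamus markers rose, 1 of 5 cerebellar neuron markers fell, and 0 of 5 blood and 0 of 2 granule precursor markers were called. The part of these cell types in the P75 values was not tested.

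**Figure D4:**
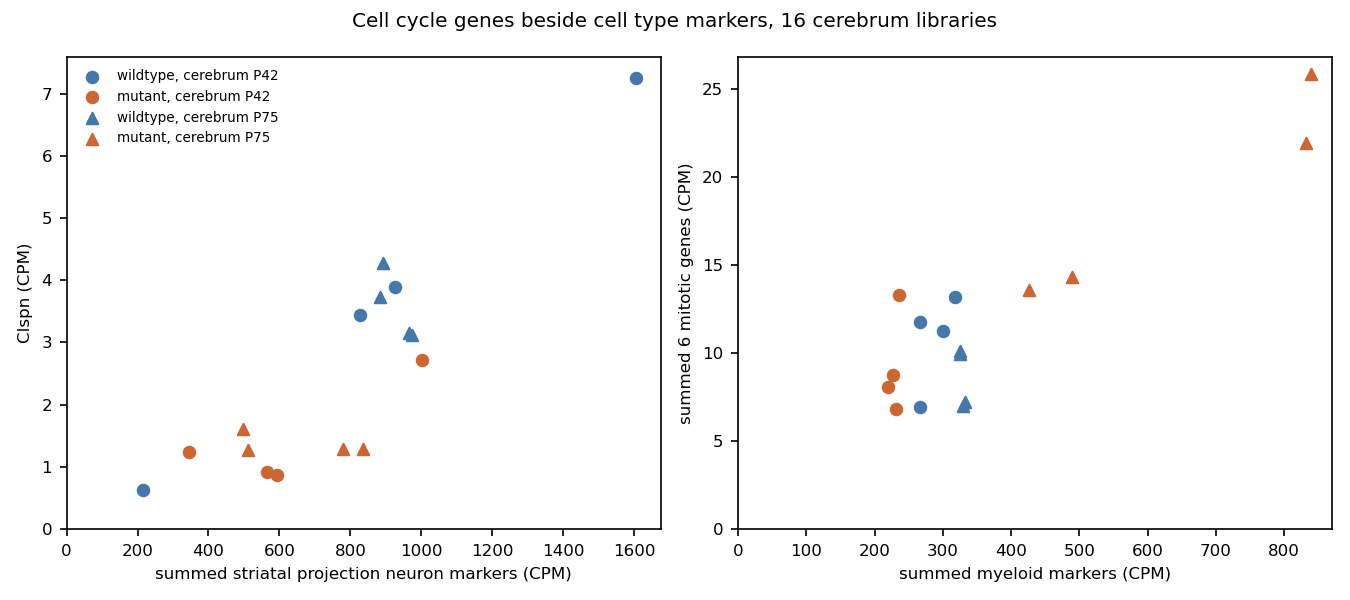
The 16 cerebrum libraries by summed marker level and cell cycle gene level, in CPM on linear axes (circles P42, triangles P75, blue wild type, orange mutant). Left, Clspn against the sum of 8 striatal projection neuron markers; right, the sum of 6 proliferation and mitotic genes against the sum of 12 myeloid markers. The P75 mutants with the highest myeloid sums (832 and 839 CPM) have the highest mitotic sums, and P42 wild type replicate 2 has both the highest striatal sum (1605 CPM) and the highest Clspn level (7.26 CPM). Among the P75 mutants the order differs: replicate 2 has the lowest striatal sum (496 CPM) and the highest Clspn level (1.61 CPM).

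Within groups, the 10 genes did not vary as a block. Over 24 libraries, the correlation of deviations from the group mean, a description without a test in which libraries share composition and depth, was 0.68 for Clspn and Mki67, 0.62 for Mki67 and Top2a, 0.51 for Clspn and Top2a, 0.63 for Ccnb1 and Mcm5, 0.61 for Ccna2 and Ccnb1 and 0.58 for Mcm3 and Mcm6. Clspn had -0.27 with Mcm6 and -0.05 with Ccna2. For Clspn and Mki67 in P42 cerebrum alone, where Clspn spread most, the correlation of deviations from the genotype mean, in log2(CPM + 0.5), was 0.883.

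The genes whose within-group deviations were most like those of Clspn, of 15518 compared over 24 libraries, were Arpp19 (r = 0.845), Pde7b (0.844), Gng7 (0.833), Pdp1 (0.832) and Foxp1 (0.830). Within P42 cerebrum r was 0.904 to 0.958 for these 5, and within P75 cerebrum it was -0.347 to 0.012. At P75 2 of these 5 fell in mutants by edgeR's quasi-likelihood test, Gng7, a G protein subunit gene (-0.67 ± 0.11, adjusted p = 0.000944), and Arpp19, a phosphatase inhibitor gene (-0.61 ± 0.10, adjusted p = 0.00148). Pde7b (-0.34 ± 0.13, adjusted p = 0.0874), Pdp1 (-0.11 ± 0.08, adjusted p = 0.421) and Foxp1 (-0.09 ± 0.09, adjusted p = 0.578) did not pass.

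Most like the summed proliferation and mitotic genes were Gbp3 (r = 0.784), B4galt1 (0.782), Nckap1l (0.779), Kif23 (0.767) and Gm20633 (0.747). At P75 Gbp3, an interferon-inducible guanylate-binding protein gene, rose from 4.25 ± 1.24 to 53.0 ± 18.4 CPM (SD, n = 4 per group; log2 fold change 3.62 ± 0.25, edgeR quasi-likelihood adjusted p = 1.23e-06). Nckap1l, a cytoskeletal regulator gene of blood-derived cells, rose by 0.63 ± 0.17 (adjusted p = 0.0249). B4galt1 (adjusted p = 0.126), Gm20633 (0.132) and the mitotic kinesin gene Kif23 (0.991) did not pass.

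In P42 cerebrum, where Clspn spread most, its relation to the other members and to marker sums was computed over the 8 libraries, 37 relations in all with those of the mitotic sum, a family chosen after the values were seen. By an exact permutation test over all pairings, two-sided and Benjamini-Hochberg adjusted, 0 of 37 passed. The test shuffled all 8 libraries together, without regard to genotype or sex. With striatal markers Pearson's r was 0.874 (exact p = 0.00412, adjusted p = 0.0508) and Spearman's rho 0.833 (exact p = 0.0154, adjusted p = 0.148), and r was 0.748 without the 2 libraries farthest from the median. With Mki67 r was 0.911 (exact p = 0.00893, adjusted p = 0.0629) and rho 0.786 (exact p = 0.0279, adjusted p = 0.148), with r = 0.889 without 2 libraries. With neuroblast markers r was 0.863 (exact permutation adjusted p = 0.0508) and rho 0.810 (adjusted p = 0.148). With the T cell list r was 0.933 (exact permutation adjusted p = 0.0508) and rho 0.833 (adjusted p = 0.148). Of that list, Cd3d and Cd3g were at 0 in every P42 cerebrum library. Taken alone (n = 4 each), wild types and mutants gave r of 1 (rounded) and 0.644 with striatal markers and 0.902 and 0.993 with Mki67. With neuroblast markers these values were 0.851 and 0.737, and with the T cell list 0.959 and 0.783. For Clspn and thalamus and hypothalamus markers r was -0.764 (exact permutation adjusted p = 0.0976). High values were not particular to Clspn. The sum of the 6 proliferation and mitotic genes had rho 0.857 with striatal markers (exact permutation adjusted p = 0.148). The r of that sum was 0.885 with the T cell list (adjusted p = 0.0629) and 0.509 with myeloid markers (adjusted p = 0.371).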

How the data were processed

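RNA was extracted with Trizol and libraries were made by polyA enrichment, per the labels' protocols. The authors deposited raw counts per gene, and the submitters' processing notes name HISAT2, DESeq2 and mm10; the counter and its use of strand are not stated in the labels or headers. The authors' deposited comparison tables were not used. Counts were filtered with filterByExpr (minimum count 10), scaled by TMM and tested with edgeR 4.0.16 (quasi-likelihood F test, two-sided, R 4.3.3) over all genes, with sex as a covariate at P42 and a Benjamini-Hochberg adjusted p under 0.05. DESeq2 1.42.0, other scalings and filters, sex settings, a replicate block, a stricter threshold and leaving out each library were alternatives. The edgeR procedure was run on simulated data with known changes, and the share it recovered is not given here. Likeness used log2(CPM + 0.5) deviations of genes at 1 CPM or more. Named genes were all 10 members, up to 4 genes of smallest p per pathway list, the first 2 of each marker list, markers a result turns on and the 5 most alike genes. Not every first pair is printed, and Lck, Trbc2, Cd4, Cd3g, Cd8a, Gzmb and Gpr17 were named after their values were seen. The members and lists were chosen with earlier results of these data known. No library pair was identical (lowest within-group chi-square per degree of freedom 3.92). P42 and P75 counts are in separate tables, so levels were not compared between ages. For the checkpoint list in P42 cerebrum, the gene of smallest p is not reported here.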

Additional observations from a re-analysis of the deposited data

Results flagged for a closer look

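In 3 of 60 groups of 4 libraries, 1 library stood apart from the other 3 by Dixon's criterion, about the share (1 in 20) that chance gives. Mki67 in P75 wild type cerebrum was at 3.46 CPM in replicate 2 against 1.51 to 1.77 CPM in the others; without that library the P75 log2 fold change was 1.63 instead of 1.30. Top2a in P42 mutant cerebellum was at 1.33 CPM in replicate 3 against 0.0439 to 0.264 CPM in the others, a gene that did not pass the filter in that comparison. Clspn in P75 mutant cerebrum was at 1.61 CPM in replicate 2 against 1.28 to 1.29 CPM in the others, and the log2 fold change without it was -1.46.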

How the results depend on the processing

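The counts of members called at P42 stayed at 0 in both tissues under every alternative, except 1 (Clspn) in cerebrum with no filter. For the other cell cycle genes, DESeq2 called 1 higher in P42 cerebrum, and with no filter 3 were called higher and 1 lower there and 1 higher in cerebellum. Over all genes, the setting with no filter called 1312 of 34243 in P42 cerebrum and 153 of 33753 in cerebellum. At P75, 12 higher became 22 under scaling by library size alone, 20 with no filter, 5 at an adjusted p under 0.01 and 7 to 21 with 1 library left out; 3 lower became 1 at the stricter threshold and 1 to 4 with 1 library left out. The 4 tissue calls in wild types became 2 at the stricter threshold and 2 to 4 with 1 library left out. Uncalled log2 values changed sign in P42 cerebrum in males only (Mki67 0.061, Top2a 0.699), in cerebellum with the replicate block (Mcm5 -0.161), and between wild type tissues under scaling by library size alone (Ccna2 -0.001, Mcm3 -0.081). With 1 library left out, log2 values ran from -0.467 to 0.078 for Mcm5 in P42 cerebrum, -0.046 to 0.355 for Mcm3 in P42 cerebellum, -0.203 to 0.413 for Mcm5 in P42 cerebellum, -0.212 to 0.624 for Mki67 for the tissue interaction, -0.708 to 0.393 for Cdk1 for the tissue interaction, -0.011 to 0.346 for Mcm3 for the tissue interaction, -0.156 to 0.457 for Birc5 between wild type tissues and -0.251 to 0.209 for Mcm3 between wild type tissues; the cause was not tested. Same-numbered libraries correlated at 0.01 to 0.28 (P42 cerebrum), -0.4 to 0.08 (cerebellum) and 0.04 to 0.19 (P75). The numbers were not taken as pairs in the main tests. At P75 8 of 8 libraries correlated best with their own number, against 4 of 8 in P42 cerebrum and 0 of 8 in cerebellum. Pairing at P75 is therefore not excluded. With the replicate block 14 other cell cycle genes were higher and 4 lower at P75, and 8, 1 and 3537 genes were called over all in P42 cerebrum, cerebellum and P75, against 3, 2 and 2502. Mki67, Cdk1, Birc5, Hmmr and Clspn had no value under some settings, where they did not pass the filter. Depth limits the sparse genes most: Cdk1, Ccnb1, Birc5 and, in cerebellum, Clspn had counts in the single or low double digits in many libraries.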
